A study of Mus musculus with 12 samples.

Results

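The OAS and IFIT families are antiviral genes that cells switch on in response to interferon. The 10 members described here were chosen by name as mouse genes of these families, with no measured value in the rule: 6 OAS genes (Oas1a, Oas1g, Oas2, Oas3, Oasl1 and Oasl2) and 4 IFIT genes (Ifit1, Ifit2, Ifit3 and Ifit3b). Each of the 10 had its own row among the 24100 genes of the deposited count table. The 8 other OAS and IFIT genes of the table are given with the pathway at the end.

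Interferons bind a receptor at the cell surface, and the kinases JAK1 and TYK2 then activate a complex of transcription factors that enters the nucleus and switches on antiviral genes. OAS proteins sense double-stranded RNA and make short chains of adenylate, a signal that leads to the breakdown of RNA in the cell. OASL proteins are relatives of the OAS enzymes, and IFIT proteins bind RNA ends that lack the marks of the host's own messages. In unstimulated fibroblasts these genes are typically kept at a low level.

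RNA was measured in SV40-immortalized mouse embryonic fibroblasts (MEFs), cells grown from embryos and immortalized with the SV40 large T antigen. WT cells were Rtf2+/+ and RTF2-deficient cells were Rtf2-/lox, and both received Cre recombinase from a Hit & Run pMMP retrovirus 72 hours before harvest. RTF2 is a protein of the DNA replication fork. The 2 MEF lines came from different mothers, WT and RTF2-deficient cells of a line were littermates, and each of the 4 groups held 3 libraries, 12 in all. The 3 libraries of a group were technical replicates of 1 line, so the p-values below measure the spread between such libraries and not between animals. Each genotype of each line stands for 1 isolate of cells, and SV40 large T antigen and the retrovirus were common to all 4 groups. In bulk RNA, a few cells with much of a transcript and many cells with a little cannot be told apart.

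Library totals ran from 39360167 to 44695002 counts, and values are given as counts or as CPM (counts set to a common library size with edgeR's TMM factors). Rtf2 was at 44.8 to 57.8 CPM in the WT libraries and 5.44 to 6.66 CPM in the RTF2-deficient libraries, a log2 fold change of -3.01 over both lines. The 6 fibroblast markers summed to 16189 to 21017 CPM in the line 1 libraries and 13067 to 15342 CPM in the line 2 libraries, with no overlap. In WT and RTF2-deficient line 1 the 4 endothelial markers summed to 10.7 to 14.7 and 17.6 to 21.5 CPM. In line 2 they summed to 13.2 to 15.5 and 13.9 to 18.3 CPM. The 4 epithelial markers summed to 2.06 to 2.36 and 2.77 to 4.27 CPM in line 1, and to 6.75 to 9.53 and 9.09 to 13.1 CPM in line 2. In line 1 the genotypes thus did not overlap in either sum. The 6 macrophage markers summed to 2.55 to 3.85 CPM in WT line 1, 3.02 to 3.54 in RTF2-deficient line 1, 7.14 to 10.1 in WT line 2 and 5.04 to 6.29 in RTF2-deficient line 2. WT line 2 also differed from the other 9 libraries in Xist, the RNA that silences an X chromosome, at 0.0217 to 0.132 CPM against 103 to 173 CPM. In the same comparison Ddx3y, a gene of the Y chromosome, stood at 91.8 to 107 CPM against 0 to 0.195 CPM. In line 2 the genotype therefore moved together with the sex-linked genes, and between the WT lines the line did too, and these cannot be told apart in the members' values below.

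The 6 OAS genes lie on chromosome 5 and the 4 IFIT genes on chromosome 19 (RefSeq, GRCm38.p6). Oas1a (chr5:120896256-120907544), Oas1g (chr5:120876142-120887613), Oas2 (chr5:120730333-120749886) and Oas3 (chr5:120753098-120777684) are on the minus strand. Oasl1 (chr5:114923143-114937911) and Oasl2 (chr5:114896926-114912245) are neighbours on the plus strand. Ifit2 (chr19:34550550-34576534), Ifit3 (chr19:34583119-34588982), Ifit3b (chr19:34607530-34613403) and Ifit1 (chr19:34640889-34650009) follow each other on the plus strand.

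That complex of transcription factors binds the interferon-stimulated response element, whose core was searched as GAAA, any 2 bases and GAAA again, on both strands of RefSeq promoter windows, each from 250 bases before to 50 bases after a transcript start that RefSeq's promoter table uses. For some members (Ifit3 and Ifit3b among them) that start lies inside the gene span given above, and Ifit2 has 2 windows. The motif stood in the windows of 6 of the 9 members with an entry (Oas1a, Oas1g, Oas3, Ifit1, Ifit3 and Ifit3b), while 1079 of all 27025 genes with a window (3.99%) had it. It was not in the windows of Oasl1, Oasl2 or Ifit2, which says only that these letters are not there. Oas2 had no entry. The stretches that hold the motif are printed 5′ to 3′ on the gene's own strand, so that the close copies and the other carriers can be compared. Capitals mark the motif, as its reverse complement where it lies on the other strand. The stretches are Oas1a chr5:120907505-120907570 and Oas1g chr5:120887591-120887656 and Oas3 chr5:120777700-120777759 (all minus strand), and Ifit1 chr19:34640760-34640838, Ifit3 chr19:34583348-34583407 and Ifit3b chr19:34607744-34607803 (all plus strand).
Oas1a: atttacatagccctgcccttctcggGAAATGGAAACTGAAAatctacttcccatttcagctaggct
Oas1g: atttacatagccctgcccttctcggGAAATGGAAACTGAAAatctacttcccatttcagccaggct
Oas3: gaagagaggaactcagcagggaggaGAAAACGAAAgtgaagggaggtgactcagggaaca
Ifit1: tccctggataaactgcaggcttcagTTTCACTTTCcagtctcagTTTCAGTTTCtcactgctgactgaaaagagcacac
Ifit3: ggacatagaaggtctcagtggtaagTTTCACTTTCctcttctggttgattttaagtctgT
Ifit3b: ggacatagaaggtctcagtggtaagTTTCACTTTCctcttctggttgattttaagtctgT

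The Oas1a and Oas1g stretches held 2 overlapping motifs each and differed in 1 of 66 bases. The Ifit3 and Ifit3b stretches were the same over all 60 bases, and the single capital at their 3′ end is the first base of a second motif. The first motif base lay at -20 in Oas1a, -18 in Oas1g, -75 in Oas3, -104 in Ifit1, -156 in Ifit3 and -188 in Ifit3b, counted from the transcript start of the window. A match is a description of the letters and not a site of binding.

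Oas1a and Oas1g encode enzymes of the OAS1 type, which hold a single catalytic unit. Oas1a had 112, 6 and 13 counts in WT line 1 replicates 1 to 3, and 18, 2 and 6 in RTF2-deficient line 1. In line 2 it had 7675, 563 and 1882 counts in WT and 62, 184 and 2367 in RTF2-deficient cells. Oas1a was thus higher in every WT line 2 library than in any line 1 library, while the WT and RTF2-deficient libraries of line 2 overlapped, with RTF2-deficient replicate 3 above WT replicates 2 and 3. Oas1g, its near-identical neighbour, had 13, 0 and 3 counts in WT line 1 and 0, 0 and 2 in RTF2-deficient line 1. In line 2 its counts were 1857, 34 and 170 in WT and 2, 17 and 340 in RTF2-deficient cells. Oas1g was therefore at 0 to 13 counts in all of line 1, and in line 2 RTF2-deficient replicates 1 and 2 lay below every WT library while replicate 3 lay above WT replicates 2 and 3.

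Oas2 and Oas3 encode the larger enzymes, with several OAS units in 1 protein. Oas2 had 17, 3 and 6 counts in WT line 1 and 1, 0 and 0 in RTF2-deficient line 1. In line 2 it had 1630, 13 and 190 counts in WT and 1, 3 and 227 in RTF2-deficient cells. WT line 2 replicate 2, at 13 counts, lay within the range of WT line 1, so Oas2 was the only member whose WT libraries overlapped between lines. Oas3 had 16, 3 and 18 counts in WT line 1 and 2, 9 and 7 in RTF2-deficient line 1, and then 3003, 45 and 390 in WT line 2 and 9, 20 and 441 in RTF2-deficient line 2. As for Oas1a, RTF2-deficient line 2 replicate 3 exceeded WT line 2 replicates 2 and 3, and the other 2 were lower than each WT library of that line. Oas1g, Oas2 and Oas3 passed the filter on low counts through their line 2 libraries, since at most 18 counts were seen in any line 1 library.

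Oasl1 and Oasl2 encode OAS-like proteins that carry ubiquitin-like domains. Oasl1, a repressor of Irf7 translation, had 67, 21 and 36 counts in WT line 1 and 76, 26 and 55 in RTF2-deficient line 1. The genotypes overlapped there, though each RTF2-deficient library held more than the WT library of its number. In line 2 it had 10664, 415 and 1825 counts in WT and 159, 310 and 2945 in RTF2-deficient cells. Oasl2 had 744, 57 and 114 counts in WT line 1, 142, 46 and 38 in RTF2-deficient line 1, 23798, 1199 and 5982 in WT line 2 and 123, 429 and 8443 in RTF2-deficient line 2. Both genes were above their line 1 levels in every WT line 2 library. In RTF2-deficient cells the lines did not overlap for Oasl1 but did for Oasl2, whose 123 counts in line 2 replicate 1 lay within the line 1 range of 38 to 142.

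Among the IFIT genes, Ifit1 encodes a protein that binds capped RNA lacking the methylation of host messages. Ifit1 had 1377, 167 and 402 counts in WT line 1 and 586, 211 and 276 in RTF2-deficient line 1. In line 2 it had 41528, 4201 and 10793 counts in WT and 764, 1386 and 17155 in RTF2-deficient cells, and these 2 groups overlapped while both lay above their line 1 counterparts. Ifit3 had 399, 100 and 339 counts in WT line 1, 175, 71 and 108 in RTF2-deficient line 1, 47154, 1644 and 6055 in WT line 2 and 278, 449 and 11751 in RTF2-deficient line 2. Its near-identical neighbour Ifit3b had 194, 43 and 102 counts in WT line 1, 44, 39 and 36 in RTF2-deficient line 1, 16316, 742 and 2332 in WT line 2 and 105, 168 and 4231 in RTF2-deficient line 2. Both copies therefore shared one order of libraries in line 2, from WT replicate 1 at the top to RTF2-deficient replicate 1 at the bottom.

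Ifit2, whose product binds AU-rich RNA, was the exception in its even level in line 1. It had 1254, 1198 and 1176 counts in WT line 1 and 1068, 1099 and 1125 in RTF2-deficient line 1, a highest-to-lowest ratio in CPM of 1.06 and 1.08. In line 2 it had 7929, 2148 and 2420 counts in WT and 1406, 1366 and 3231 in RTF2-deficient cells. Every line 2 library of Ifit2 lay above every line 1 library of the same genotype, by a small margin: the lowest line 2 library was at 47.4 CPM in WT and 33.8 CPM in RTF2-deficient cells, and the highest line 1 library at 29.9 and 27.4 CPM.

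**Figure D1:**
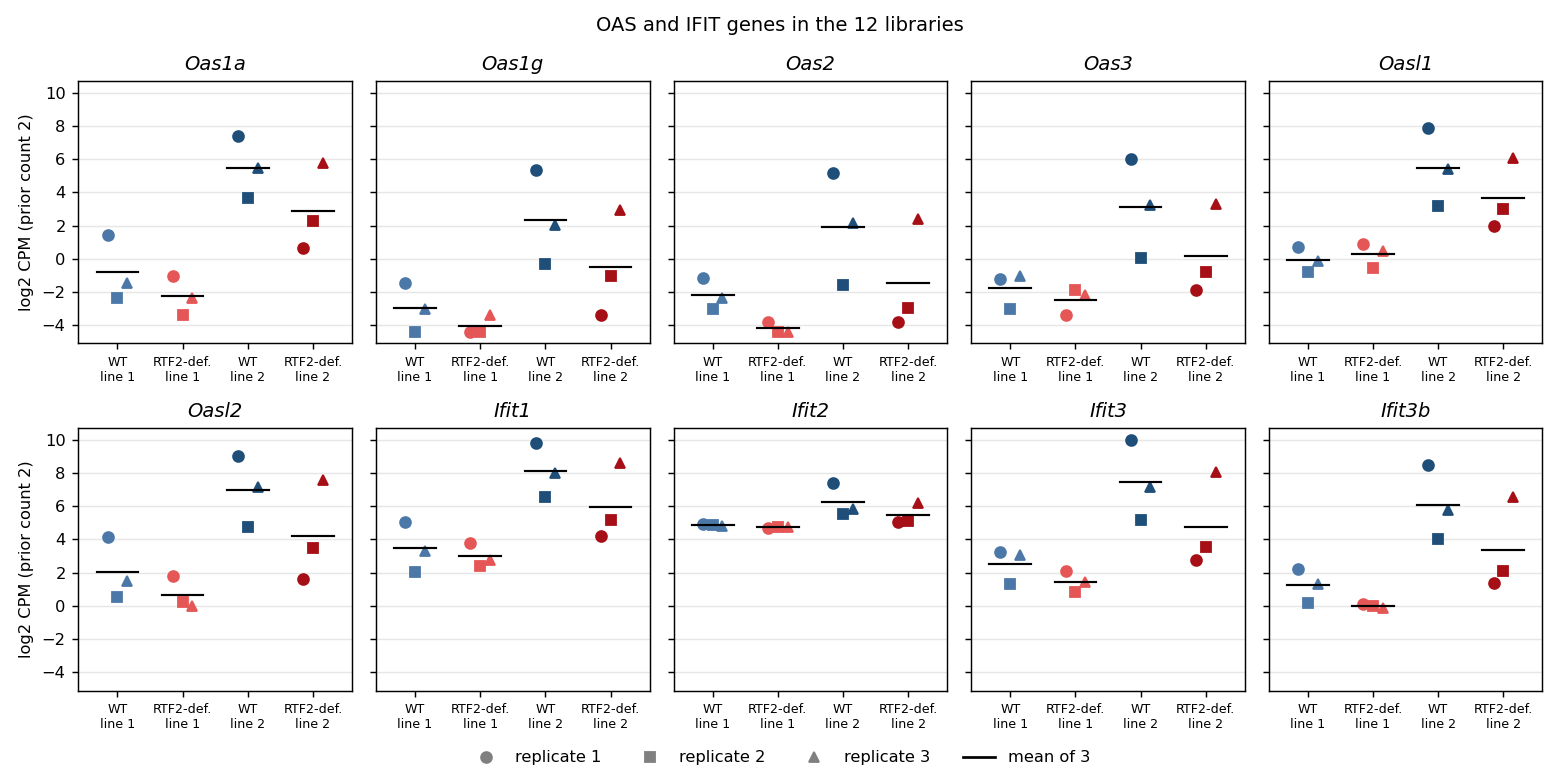
Each panel plots 1 gene, with log2 CPM (prior count of 2) on the vertical axis and the 4 groups on the horizontal axis. Points are single libraries, their shapes mark the replicate number, and bars are means of 3 libraries. WT line 2 replicate 1 is the highest point in all 10 panels and RTF2-deficient line 2 replicate 3 the second highest.

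The members moved together from library to library. WT line 2 replicate 1 was the highest library for all 10 members, RTF2-deficient line 2 replicate 3 the second and WT line 2 replicate 3 the third. WT line 2 replicate 2 was the fourth for 9 members, and for Oas2 WT line 1 replicate 1 took that place. The 10 genes together took 0.369% of all counts in WT line 2 replicate 1 and 0.120% in RTF2-deficient line 2 replicate 3, but 0.00355% in RTF2-deficient line 1 replicate 2, the lowest library. WT line 1 held the same kind of split on a smaller scale, with replicate 1 the highest for 9 members and replicate 2 the lowest for 9.

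Within WT line 2 the highest library exceeded the lowest 123-fold for Oas2 (95% interval from counting error 72.0 to 232), 65.7-fold for Oas3 and 53.8-fold for Oas1g. The ratio was 28.2 for Ifit3, 25.3 for Oasl1, 21.7 for Ifit3b, 19.5 for Oasl2, 13.4 for Oas1a, 9.74 for Ifit1 and 3.64 for Ifit2. The larger enzymes and Oas1g, the genes with the fewest counts, thus spanned the widest range, and Ifit2 the narrowest. Within RTF2-deficient line 2 the ratio was 64.5 for Oasl2, 46.0 for Oas3, 39.7 for Ifit3, 37.9 for Ifit3b, 35.9 for Oas1a, 21.1 for Ifit1, 17.4 for Oasl1 and 2.16 for Ifit2. For Oas1g, with 2 counts in the lowest library, it was 160 (43.9 to 1324), and for Oas2, with 1 count, it was 213 (37.9 to 8460). The median ratio over the members was 23.5 in WT and 38.8 in RTF2-deficient line 2, and the rank order of the 10 genes was similar in both (Spearman's rho 0.758 over 10 genes that share the same 6 libraries). Intervals on counts cover counting error only.

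Per kilobase of the longest coding transcript, the order of the members differed between the lines. In WT line 1 Ifit2 was the most abundant at 7.68 CPM per kb, followed by Ifit1 (5.86), Ifit3 (3.86), Oasl2 (2.34) and Ifit3b (1.36), with Oas1a (0.555) and Oasl1 (0.457) below 1 CPM per kb. Oas1g (0.0646), Oas3 (0.0629) and Oas2 (0.0526) were the least abundant there, and each pair of neighbours among them kept this order in 1 of the 3 libraries. Oas1a lay above Oasl1, and Oasl2 above Ifit3b, in 1 of 3 as well. In WT line 2 Ifit3 led at 230 CPM per kb, then Ifit1 (157), Oasl2 (73.1), Ifit3b (71.0), Oasl1 (43.4) and Oas1a (39.5), and Ifit2 stood in the seventh place at 24.2 CPM per kb. Ifit2 had rank 7 in WT line 2 replicates 1 and 3 but rank 3 in replicate 2, at 12.4 CPM per kb. Oas1g (7.60), Oas3 (5.33) and Oas2 (3.38) stayed the last, in that order in all 3 libraries and below Ifit2 in each. Ifit1 lay above Oasl2, and Ifit3b above Oasl1, in all 3 as well, whereas Ifit3 lay above Ifit1 and Oasl1 above Oas1a in 1 of 3, so these neighbours had no fixed order. Each level itself varied widely: the SD over the 3 WT line 2 libraries exceeded the mean for 9 members, and Ifit2 had 92.2 ± 69.4 CPM (SD, n = 3).

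The spread between libraries of one group set the members apart from most genes. The SD of log2 CPM within groups was 0.180 for the median of 14263 genes tested. It was 2.43 for Oas2, 2.28 for Oas1g, 2.15 for Oas3 and for Oasl2, 1.98 for Oas1a, 1.97 for Ifit3, 1.87 for Ifit3b, 1.67 for Oasl1 and 1.65 for Ifit1. These 9 members lay at the 99.6th percentile of all tested genes or higher. Ifit2 lay at the 91.8th percentile, with an SD of 0.593. edgeR's biological coefficient of variation gave 0.367 for Ifit2 and up to 1.39 for Oas1g, against a median of 0.138.

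**Figure D2:**
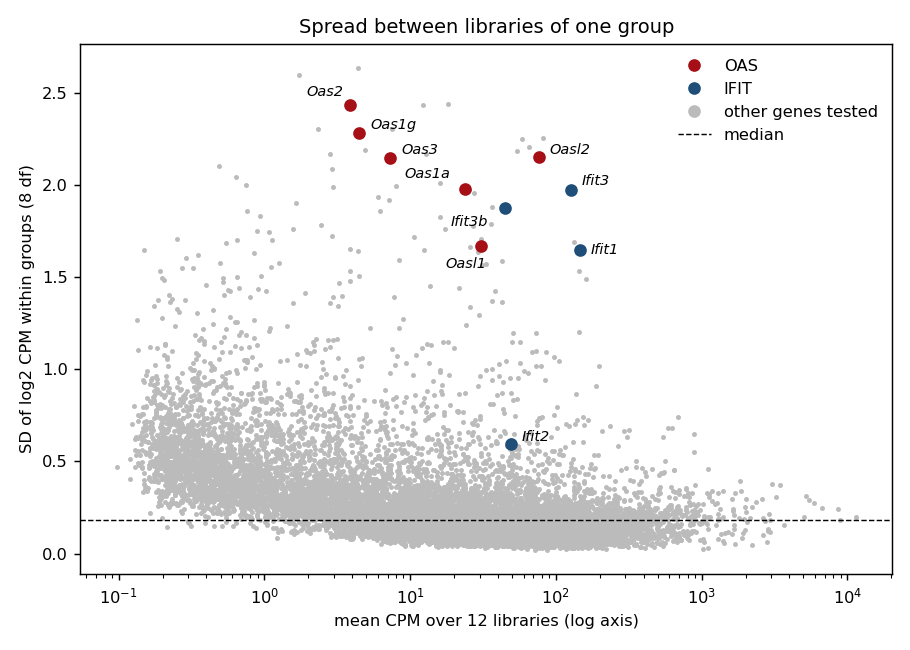
Each point is 1 of the 14263 genes tested, with mean CPM over the 12 libraries on a log axis and the SD of log2 CPM within groups (8 degrees of freedom) on the vertical axis. The OAS genes (red) and the IFIT genes (blue) other than Ifit2 lie between 1.65 and 2.43, and the dashed line is the median of 0.180.

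The comparison of RTF2-deficient with WT cells asks whether loss of RTF2 changes transcript levels. Over both lines no member was called by edgeR's quasi-likelihood test, where a call needed a log2 fold change beyond 1 and an adjusted p (Benjamini-Hochberg) under 0.05, while 1.72% of all tested genes were called. All 10 members had values below 0, from -0.56 ± 0.322 (SE) for Ifit2 to -3.04 ± 1.35 for Oas2, with adjusted p from 0.160 to 0.488. Their median was -1.85 against 0.00194 for all tested genes. At an unadjusted p under 0.05 by edgeR the count was 1 (Oas2), while 28.5% of all genes passed it. DESeq2 called 1 (Oas2, log2 fold change -3.62, adjusted p 0.0499) against 2.11% of the genes it tested. With the 3 technical libraries of each group summed to 1 sample, edgeR called none, but 8 members had an unadjusted p under 0.05, as 19.2% of all genes did, and the median was -1.82. The 6 OAS genes had a median of -2.20 and the 4 IFIT genes one of -1.45. The OAS median includes Oas1g, Oas2 and Oas3, which passed the filter on low counts through line 2, so it is no contrast of the families. These values turned on single libraries of line 2: without WT line 2 replicate 1 the median was -0.64 and Oasl1 stood at 0.16, and without RTF2-deficient line 2 replicate 3 the median was -3.46 and 3 members (Oas1a, Oas1g and Oas2) were called lower, against 1.92% of genes called in that fit. Leaving aside Oas1g, Oas2 and Oas3, which then had at most 20 counts in any library outside WT line 2, 1 of the 7 others was called and the median was -3.08. With all libraries, 1 of 2 endothelial and 1 of 4 epithelial markers tested had an adjusted p under 0.05 by edgeR, though none was called. Their part in the members' values was not tested.

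Within line 1 no member was called, against 0.918% of tested genes. At an unadjusted p under 0.05 the count was 0 by edgeR (13.9% of all genes) and 1 by DESeq2 (14.7%), which called 0 after adjustment. The value was below 0 for 9 members and 0.34 ± 1.44 for Oasl1, and the median was -1.37. Ifit2 differed by -0.14 ± 0.436 and Ifit1 by -0.85 ± 1.18. The median turned on 1 library: without WT line 1 replicate 1 it was -0.49, and Ifit1 stood at 0.33. Oas1g summed to 16 counts in WT and 2 in RTF2-deficient line 1, a ratio of 8 with an interval from 1.88 to 71.7, and Oas2 to 26 and 1, a ratio of 26.0 (4.27 to 1066). Those intervals treat the 3 libraries as one pool and leave out the spread between them. For Oas2, Ifit2 and Ifit3b (3 members) the RTF2-deficient values were all lower than the WT values, a separation in that direction that 11.3% of tested genes also showed. Between same-numbered libraries Oas1a, Oas2, Oasl2, Ifit2, Ifit3 and Ifit3b were lower in RTF2-deficient cells each time, and Oasl1 was higher. For Oas1g, Oas3 and Ifit1 neither held. The share of all genes with such one-way differences was not counted, and with the replicate number as a block 0 members were called.

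Within line 2 no member was called either, against 3.78% of tested genes, and DESeq2 called 0. At an unadjusted p under 0.05 the count was 1 (Ifit2, p 0.0489 by edgeR's quasi-likelihood test across all genes), against 27.8% of all genes. All 10 values were below 0, from -0.96 ± 0.435 for Ifit2 to -2.92 ± 1.52 for Oas2, and the median was -1.98. Oas3, at -2.81 ± 1.37, and Oas1g, at -2.45 ± 1.44, came next to Oas2, while Oasl1 stood at -1.86 ± 1.12 and Oasl2 at -1.74 ± 1.40. For all 10 members the WT and RTF2-deficient libraries of line 2 overlapped, whereas 29.5% of tested genes did not overlap between these groups. Cd68, a macrophage marker, was called lower here at -1.07, though not without WT line 2 replicate 1 or RTF2-deficient line 2 replicate 2. The other 3 macrophage markers tested did not pass, with Csf1r at 0.76, Lyz2 at 0.43 and Itgam at -0.51, and Ptprc and Adgre1 had too few counts to be tested. The part of these markers in the members' values was not tested.

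The library left out decided what was called in line 2. Without RTF2-deficient line 2 replicate 3, which had 2367 of the 2613 Oas1a counts of its group, the median of the members was -5.18 and 9 of 10 were called lower, with Ifit2 the exception at -1.40, while 6.14% of all genes were called in that fit. Oas1g, Oas2 and Oas3 then had at most 20 counts in any library outside WT line 2, and leaving them aside 6 of the 7 others were called, with a median of -4.57. In that fit Oas2 stood at -7.96, Oas3 at -6.08, Oas1g at -5.94, Ifit3 at -5.44 and Ifit3b at -5.35, with adjusted p from 0.0177 to 0.0442 over the 9. Without WT line 2 replicate 1 the median was -0.19, none was called, and Oas1g (0.21), Ifit3 (0.08) and Oasl1 (0.01) had values above 0. The remaining 10 omissions left 0 members called.

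**Figure D3:**
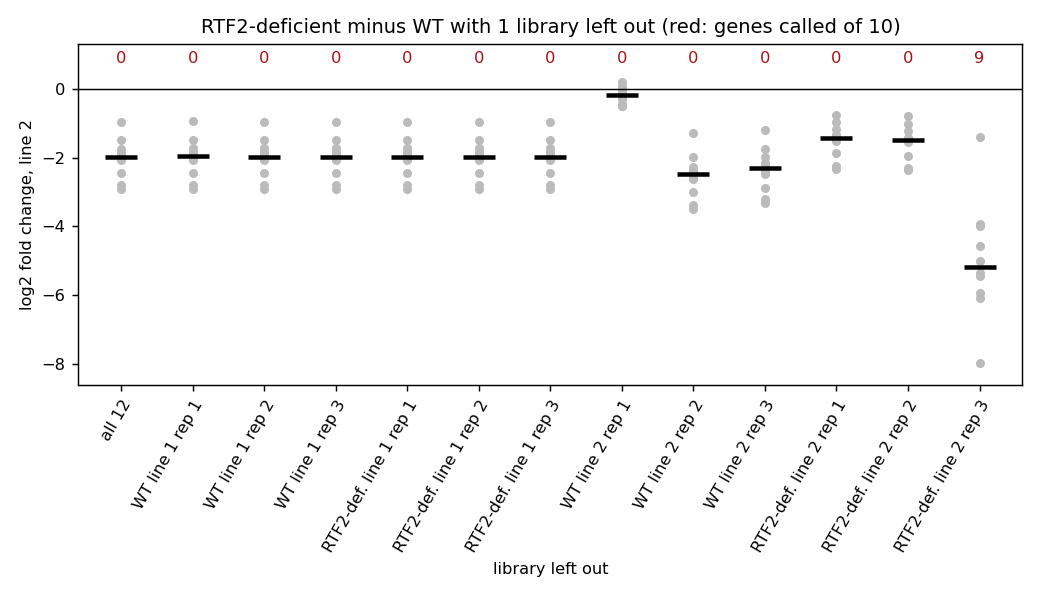
Each column gives the log2 fold change of RTF2-deficient over WT line 2 for the 10 members (grey) and their median (bar), with all 12 libraries and then with 1 library left out, and the red number is the count of members called. The median runs from -0.19 without WT line 2 replicate 1 to -5.18 without RTF2-deficient line 2 replicate 3.

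The genotype effects of the 2 lines were compared directly by an interaction term. No member was called, against 1.05% of tested genes. The test was edgeR's quasi-likelihood test, where 0 members had an unadjusted p under 0.05, against 8.49% of all genes, and DESeq2 called 0. The differences ran from -2.20 ± 1.81 (Oasl1) to 1.34 ± 5.90 (Oas2), with adjusted p from 0.884 to 0.998. The OAS genes, with Oas1g, Oas2 and Oas3 kept through line 2 among them, had a median of 0.30 and the IFIT genes one of -0.74. The standard errors ran from 0.614 (Ifit2) to 5.90 (Oas2). The median of all members, -0.60, turned on single libraries. Without RTF2-deficient line 2 replicate 3 it was -3.43, and 4 members had an unadjusted p under 0.05 by edgeR, against 11.5% of all genes. Without WT line 2 replicate 1 it was 1.37.

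The comparison of the WT lines asks how the members differ between lines that hold RTF2. By edgeR's quasi-likelihood test 8 members were higher in WT line 2 than in WT line 1 (all but Oas2 and Oasl2), and none was lower, while 6.76% of tested genes were called in either direction and 3.89% as higher. The log2 differences by edgeR were 6.83 ± 1.96 for Oas1g (adjusted p 0.0398), 6.56 ± 1.45 for Oasl1 (0.0119), 6.38 ± 1.75 for Oas3 (0.0334) and 6.14 ± 1.55 for Oas1a (0.0234). Among the IFIT genes they were 5.90 ± 1.62 for Ifit3 (0.0341), 5.70 ± 1.55 for Ifit3b (0.0324), 4.74 ± 1.32 for Ifit1 (0.0354) and 1.65 ± 0.443 for Ifit2 (0.0311). Oas2 (5.98 ± 1.89, adjusted p 0.0586) and Oasl2 (4.96 ± 1.63, adjusted p 0.0678) did not pass. With the replicate number as a block 8 members were called as well, but Oasl2 (4.82, adjusted p 0.0499 by edgeR) was among them and Ifit2 (1.55, adjusted p 0.0543) was not. Leaving aside Oas1g, Oas2 and Oas3, which the low-count filter kept through line 2, 6 of the 7 others were called.

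Those calls lay close to the threshold. DESeq2 called all 10 (and 7.86% of the genes it tested), and a robust prior in edgeR called 3 (Oas1a, Oasl1 and Ifit2, with 6.51% of all genes). Leaving out WT line 1 replicate 1 left 3 calls (Oas1a, Oasl1 and Ifit1), leaving out replicate 2 left none, and leaving out replicate 3 or WT line 2 replicate 1 left 1 (Oasl1). In those 4 fits 5.46%, 4.86%, 5.73% and 5.10% of all genes were called. All 10 members kept a log2 difference above 0 in every omission, the lowest being 0.82 for Ifit2 without WT line 2 replicate 1, where Oas1g stood at 4.16 and Oas3 at 4.06. In 9 members all 3 WT line 2 libraries lay above all 3 WT line 1 libraries (not in Oas2), as they did in 15.1% of tested genes. Cd68 was also higher in WT line 2 (2.01), as were the epithelial keratins Krt18 (1.94) and Krt8 (3.52, called in 6 of 12 omissions). Krt8 had 0 to 1 counts in WT line 1 and 7 to 12 in WT line 2, so it was tested on very few reads and its fold is no firm size. The other 3 macrophage markers tested did not pass, with Lyz2 at 1.53, Itgam at 1.11 and Csf1r at -0.52. Of the 6 fibroblast markers none was called, but 5 were below 0 and 3 had an adjusted p under 0.05 by edgeR, Pdgfrb (-0.94), Col1a2 (-0.63) and Thy1 (-0.62). The part of these markers in the difference was not tested.

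Without RTF2 the lines were compared in the same way. No member was called, against 1.28% of tested genes, but 9 passed an unadjusted p of 0.05 (edgeR), as 13.4% of all genes did, and DESeq2 called 9, all but Ifit2, against 2.37% of the genes it tested. Leaving aside Oas1g, Oas2 and Oas3 again, 6 of the 7 others passed the unadjusted p and were called by DESeq2, with a median of 5.05 by edgeR. The log2 differences ran from 0.83 ± 0.437 for Ifit2 to 7.32 ± 3.15 for Oas2, with a median of 5.10 and adjusted p from 0.107 to 0.466. Oas1a differed by 6.55 ± 1.79, Oasl2 by 5.23 ± 1.72, Ifit3b by 5.15 ± 1.59 and Ifit3 by 5.05 ± 1.59. Oas1g summed to 359 counts in line 2 and 2 in line 1, a ratio of 178 (48.9 to 1475), and Oas2 to 231 and 1, a ratio of 229 (40.7 to 9081). Without RTF2-deficient line 2 replicate 3 the median was 1.87 and 1 member passed the unadjusted p, against 13.9% of all genes. Without any 1 of the RTF2-deficient line 1 libraries 6 did, against 9.17% to 12.9% of all genes. All 3 line 2 libraries lay above all 3 line 1 libraries in CPM in 7 members, against 9.77% of tested genes, though for Oas2 the nearest libraries held 1 count each and differed only by library size. Krt18 was called higher here too (1.73, adjusted p 0.0157 by edgeR, called in 10 of 12 omissions), all 6 fibroblast markers were below 0 with none called, and their part in the difference was not tested.

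**Figure D4:**
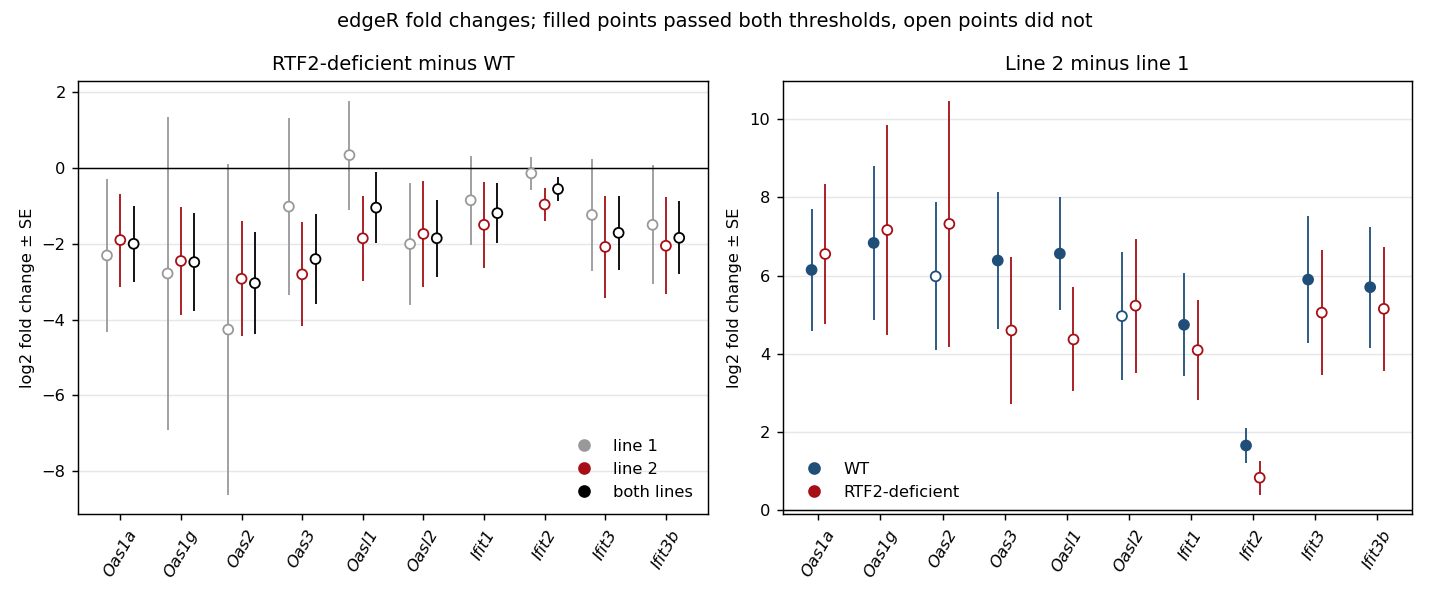
The left panel gives log2 fold changes of RTF2-deficient over WT cells in line 1, line 2 and both, and the right panel those of line 2 over line 1 in WT and RTF2-deficient cells, with SE bars from edgeR. Filled points passed both thresholds, which only 8 WT line differences did.

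The members followed each other closely over the 12 libraries. Pearson's r of log2 CPM over the 45 pairs of members ran from 0.883 to 0.995 (median 0.961), and r of the deviations from group means from 0.706 to 0.988 (median 0.931). Within line 1 the pairs spread from -0.336 to 0.969 (median 0.733), and within line 2 from 0.893 to 0.999 (median 0.986). These points share libraries, and in line 1 many members had under 20 counts. The genes most like the mean of the members were Ifi204 (r 0.995), Psmb8 (0.993), Rsad2 (0.992), Cmpk2 (0.991) and Phf11d (0.991) in log2 CPM. In the deviations from group means they were Rsad2 (0.995), Ifi204 (0.993), Btc (0.992), Dhx58 (0.990) and Phf11d (0.989), all over 12 libraries. Btc had a mean of only 0.443 CPM, so its r rests on few reads.

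Part of what separates close copies cannot be resolved with 75-base single reads. Of the 75-base words of the Oas1a transcript 47.6% also occur in Oas1g, and 44.6% of those of Oas1g in Oas1a. For Ifit3 and Ifit3b the shares were 41.1% and 35.7%, for Ifit1 5.19% were shared with Ifit1bl2, and the other members shared none with another gene. Ifit3b took 20.1% to 35.5% of the Ifit3 and Ifit3b counts over the 12 libraries. Oas1g took 19.5% (exact 95% interval 18.7 to 20.3) of the Oas1a and Oas1g counts in WT line 2 replicate 1 but 5.70% in replicate 2 and 8.28% in replicate 3, and 12.6% in RTF2-deficient line 2 replicate 3. How shared reads were divided is not given in the sources used here, and neither is strand: Oasl1 shares 38 exon bases (1.46% of its exons) with the antisense gene Gm13822.

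The other genes of the pathway showed where the members' pattern extended. Of 10 interferon genes none had enough counts to be tested. Ifnb1, the interferon that fibroblasts make first, had 69, 0 and 6 counts in WT line 2 and 0, 2 and 5 in RTF2-deficient line 2, and 1 count in the 6 line 1 libraries together. Ifna4 had 13, 0 and 3 counts in WT line 2 and 0, 0 and 6 in RTF2-deficient line 2. On these few counts, the highest library of each group of line 2 was the one in which the members were also the highest.

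Of 11 receptors, kinases and transcription factors, 1 was called in the genotype comparison. Tyk2, the kinase bound to the interferon receptor, was at 21.5 to 29.9 CPM in WT and 7.43 to 12.1 CPM in RTF2-deficient libraries. Its log2 fold change was -1.34 over both lines (adjusted p 2.92e-05 by edgeR), -1.19 in line 1 and -1.49 in line 2, and it was called lower in each of the 12 omissions in each comparison and by DESeq2. The receptor chains Ifnar1 (0.09 ± 0.0468) and Ifnar2 (0.05 ± 0.0489) and the kinase Jak1 (-0.07 ± 0.0552) did not pass. Irf7, the factor that amplifies interferon production, had 572, 44 and 152 counts in WT line 1, 160, 27 and 69 in RTF2-deficient line 1, 30977, 1140 and 4388 in WT line 2 and 79, 265 and 6119 in RTF2-deficient line 2. It followed the same order of libraries as the members in line 2 and was not called by edgeR in any comparison with all libraries (-2.07 ± 1.08 for genotype over both lines). Between the WT lines 10 of the 11 genes of this list were higher in line 2 (median 0.44). None was called by edgeR, and 8 had an unadjusted p under 0.05, as 28.1% of all genes did.

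Of 8 sensors of foreign RNA and DNA, none was called by edgeR for genotype over both lines (3 at an unadjusted p under 0.05, as 28.5% of all genes were, 1 called by DESeq2), and 3 were higher in WT line 2 than in WT line 1. These were Tmem173, which encodes the adaptor STING (1.19, called in all 12 omissions), Ifih1, which encodes the RNA sensor MDA5 (3.77, in 10 of 12), and Zbp1 (6.15, in 5 of 12). Mavs, the adaptor of the RNA sensors, stood at 28.0 to 33.3 CPM in all groups. Of 10 other effectors 4 were higher in WT line 2: Rsad2 (6.72), Cmpk2 (5.86), Mx2 (5.76) and Mx1 (5.07). These 4 were called in 3 to 8 of the 12 omissions and DESeq2 called all 10 effectors. No effector was called for genotype over both lines (0 at an unadjusted p under 0.05 by edgeR, against 28.5% of all genes, 0 called by DESeq2), and 6 were called lower in line 2 without RTF2-deficient line 2 replicate 3.

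Of 4 negative regulators of interferon signalling (Usp18, Socs1, Socs3 and Ptpn2) edgeR called none by genotype over both lines, with 2 at an unadjusted p under 0.05, as 28.5% of all genes were, and DESeq2 called none. Between the WT lines edgeR called none of them either, with 3 at that unadjusted p, as 28.1% of all genes were, and DESeq2 called 1. Usp18, which removes ISG15 from proteins and dampens the interferon receptor, had 924, 32 and 106 counts in WT line 1, 135, 22 and 26 in RTF2-deficient line 1, 16262, 1475 and 5054 in WT line 2 and 90, 469 and 6953 in RTF2-deficient line 2. Its highest library in line 2 was thus the same as that of the members in both genotypes, and its log2 fold change over both lines was -1.97 ± 1.05.

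Of the 8 other OAS and IFIT genes, 4 could be tested, and Oas1b (3.75), Oas1c (2.19) and Ifit1bl1 (1.85) were higher in WT line 2, each called in 3 to 7 of 12 omissions.

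**Figure D5:**
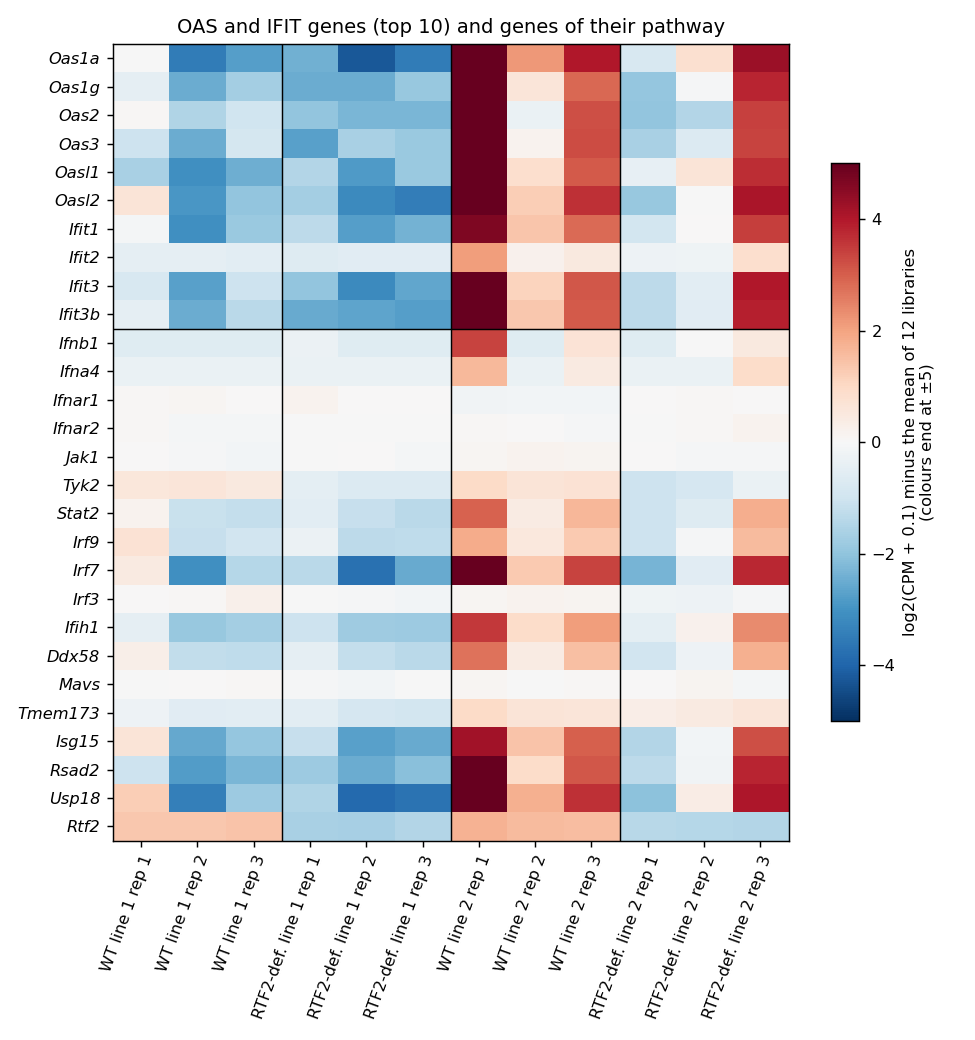
Colours give log2(CPM + 0.1) minus the mean of the 12 libraries, ending at 5 above and below, for the 10 members (above the line) and genes of their pathway in each library. The members, Irf7, Rsad2 and Usp18 are darkest in WT line 2 replicate 1 and RTF2-deficient line 2 replicate 3, while Tyk2 and Rtf2 separate by genotype.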

How the data were processed

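RNA was sequenced as 75-base single reads from 12 libraries (39360167 to 44695002 counts each). The deposited table holds raw counts per gene and library. Per the study's methods, the authors quantified reads with Salmon on UCSC mm10 gene models and summed them to genes with tximport. HTSeq is the counter named in the submitters' processing notes, also with mm10. How shared reads were divided is not given in the sources used here. Of 24100 gene IDs, 24045 matched a RefSeq symbol, and positions and promoters are RefSeq's for GRCm38.p6, a patch release of the mm10 build.

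Counts were normalized by TMM and fitted across all genes with edgeR's quasi-likelihood test (edgeR 4.0.16, limma 3.58.1, R 4.3.3). The filter filterByExpr left 14263 genes, the 10 members among them. Genotype over both lines was fitted with a term for line, and the other comparisons as contrasts of the 4 groups. P-values were adjusted over all genes tested (Benjamini-Hochberg), and a call needed both a log2 fold change beyond 1 and an adjusted p under 0.05. Log2 CPM used a prior count of 2. The edgeR fit was tested on simulated data with known changes.

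Alternatives were RLE factors, no filter, 1 CPM in 6 libraries, DESeq2 1.42.0, a robust prior, the replicate number as a block, triplicates summed, genotype without the line term, the libraries of 1 line alone, and each library left out in turn. Intervals, motif searches and figures used Python 3.11.15, scipy 1.17.1 and matplotlib 3.10.9.

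Within each group every pair of libraries differed by more than counting error (chi-square per degree of freedom 20.5 to 180), so none was merged as a copy of another, though the 3 remain technical replicates. The labels do not say that replicate numbers mark shared cultures, but deviations from group means correlated between same-numbered libraries of the WT lines (0.305 to 0.426 over 3 pairs) and of the genotypes in line 1 (lowest 0.430), so these were read as pairs. Against RTF2-deficient line 2 the correlations fell as low as -0.587, with 2 of 9 over 0.1. Across numbers, RTF2-deficient line 2 replicate 3 correlated with replicate 1 of WT line 1 (0.589), RTF2-deficient line 1 (0.514) and WT line 2 (0.654). Its replicate 1 correlated with replicate 2 of those groups (0.399 to 0.612), and its replicate 2 with their replicate 3 (0.334 to 0.375). The labels do not give such a matching, and no fit used it. Named are the members, Rtf2, up to 6 genes of each list (the most abundant, plus any called), and the 5 genes most like the members by each measure of correlation. Sex-linked genes, Ifnb1, Ifna4, Usp18 and genes named in counts of 5 or fewer were chosen after their values were seen. Some genes of the pathway lists are not reported here. The members and lists were chosen with earlier results of these data known.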

Additional observations from a re-analysis of the deposited data

Results flagged for a closer look

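In 20 sets of 6 libraries (each member within each genotype, both lines together), 1 library lay far from the others in all 20. The rule compared gaps in CPM without a log transform. Its rate of 1 in 20 holds for values from 1 normal distribution, which CPM over 2 lines are not, so 20 of 20 is no measure of chance. These sets are not independent, since the members follow each other over the same libraries. Among the WT libraries it was line 2 replicate 1 for every member, and among the RTF2-deficient libraries line 2 replicate 3. The 6 libraries of a genotype hold both lines, which widens the range, and the next library was in each case another library of line 2.

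WT line 2 replicate 1 stood at 167 CPM for Oas1a (next library 44.4), 40.3 for Oas1g (4.01), 35.4 for Oas2 (4.49) and 65.2 for Oas3 (9.21). The OAS-like genes were at 232 CPM for Oasl1 (43.1) and 517 CPM for Oasl2 (141). Of the IFIT genes, Ifit1 was at 902 CPM (255), Ifit2 at 172 (57.2), Ifit3 at 1024 (143) and Ifit3b at 354 (55.1).

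RTF2-deficient line 2 replicate 3 stood at 53.5 CPM for Oas1a (next library 4.72), 7.68 for Oas1g (0.436), 5.13 for Oas2 (0.0770) and 9.97 for Oas3 (0.513). Oasl1 was at 66.6 CPM (7.95) and Oasl2 at 191 CPM. Ifit1 was at 388 CPM (35.6), Ifit2 at 73.0 (35.1), Ifit3 at 266 (11.5) and Ifit3b at 95.6 (4.31).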

How the results depend on the processing

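Under the alternatives 103 counts of called members stayed within 1.5 times and 9 did not, and 1004 fold changes kept direction and side of the threshold, 38 lost a call, 31 gained one and 26 turned sign, all 26 when 1 library was left out. DESeq2 called 1 member for genotype over both lines and 9 between the RTF2-deficient lines, against 0 and 0, and the robust prior called 3 between the WT lines, against 8. The cause was not tested. Oas1g, Oas2 and Oas3 gave no value with 1 CPM in 6 libraries, nor in line 1 alone, since they did not pass those filters. With 1 library left out, the members called ran from 0 to 3 for genotype over both lines, 0 to 9 in line 2 and 0 to 10 between the WT lines, and stayed at 0 elsewhere. The extremes came without RTF2-deficient line 2 replicate 3 for genotype, and for the WT lines without WT line 1 replicate 2 (0) and without WT line 2 replicate 2 or RTF2-deficient line 2 replicate 1 or 3 (10).

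Log2 fold changes that turned sign ran, over the omissions, from -1.91 to 0.16 for Oasl1 over both lines, -0.0136 to 0.87 for Oasl1 and -1.39 to 0.33 for Ifit1 in line 1, and in line 2 from -5.94 to 0.21 for Oas1g, -3.98 to 0.0061 for Oasl1 and -5.44 to 0.082 for Ifit3. Differences of genotype effect between lines ran from -2.26 to 1.797 for Oas1a, -3.16 to 3.04 for Oas1g, -3.70 to 3.83 for Oas2, -5.07 to 0.51 for Oas3, -3.01 to 1.71 for Oasl2, -3.08 to 0.61 for Ifit1, -4.21 to 1.31 for Ifit3 and -3.86 to 1.43 for Ifit3b.

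The replicate block changed no call other than those of Oasl2 and Ifit2 between the WT lines, where 8 members were called with it and without it, and 0 were called in each other comparison. The block was 1 term over all 12 libraries, so those of RTF2-deficient line 2, which the numbers do not pair, entered every fit with it. These fits therefore cannot show whether the calls would hold under a true pairing. With 3 technical libraries of 1 isolate per group, depth limits Oas1g, Oas2 and Oas3 most, with under 20 counts in every line 1 library.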

Other observations

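The OAS1 cluster of the mouse holds further copies that the 10 members leave out. Oas1b had 0.396 to 1.93 CPM in WT line 1 and 2.69 to 26.7 CPM in WT line 2, while over all libraries Oas1d had at most 26 counts, Oas1e at most 4, Oas1h at most 3 and Oas1f at most 2. Oas1d, Oas1e, Oas1f and Oas1h had too few counts to be tested.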
